A study of Mus musculus with 6 samples.

Results

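The genes that carry cells through DNA synthesis and mitosis were examined in differentiated C2C12 cells, a mouse myoblast line. The 40 genes were chosen by name, 19 for S phase and 21 for mitosis, out of 19505 genes read by the Clariom S array. A named probe set was found for 37 of them, 18 of S phase and 19 of mitosis, and Mcm7, Foxm1 and Ccnb1 were not analysed here. The 6 arrays fall into 3 groups of 2. MyoD + Dox cells carried an integrated, doxycycline-inducible lentivirus encoding Myod1 and were given doxycycline. Uninduced cells carried the same lentivirus and were given none. Non-transduced cells carried no virus and, per the labels, were given doxycycline. All cells had spent 3 days in differentiation medium with 2% horse serum, and the transduced cells had been selected with blasticidin. Hence the comparison of the transduced groups changes doxycycline and Myod1 induction together, and their effects cannot be told apart in it. MyoD + Dox and non-transduced cells share doxycycline but differ in transduction and selection. The question was where the proliferation genes stand when MyoD, the transcription factor that commits cells to the muscle lineage, is raised in cultures that should already be leaving the cell cycle.

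As background, replication origins are licensed by loading of the MCM helicase with Cdc6 and Cdt1, cyclin E with Cdk2 then starts DNA synthesis, and E2F transcription factors drive many of the genes needed for it. Mitosis is entered through cyclin B with Cdk1, together with the Polo and Aurora kinases, and is left once the anaphase-promoting complex destroys the cyclins. Many mitotic genes are held silent in resting cells through a short promoter element, the cell cycle genes homology region (CHR), which is bound by a repressor complex called DREAM. When C2C12 myoblasts lose serum, most leave the cycle and fuse into myotubes with the help of the retinoblastoma protein and the inhibitor p21, while some stay behind as single reserve cells that keep the capacity to divide.

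The Myod1 signal was highest on both MyoD + Dox arrays, but non-transduced array 2, which had no virus, exceeded both uninduced arrays. Lentiviral and endogenous Myod1 were not told apart in it. Myod1 had a log2 signal of 11.51 and 12.54 in MyoD + Dox cells, 9.0 and 7.91 in uninduced cells, and 8.72 and 10.68 in non-transduced cells. Levels are given throughout as log2 of the deposited intensity, and a gene is called above background where it exceeded the 90th percentile of the array's background probe sets (a log2 signal of 6.01 to 6.15). Muscle markers were above background on at least 1 array for 16 of 16 genes and on all 6 for 15, the exception being Cav3, whereas 0 of 10 markers of macrophages, endothelium and neurons were. Of the adipocyte markers only Lipe and Pparg of 7 were above background on any array, with Adipoq and Plin1 below it, and of those of bone and cartilage only Acan and Sox9 of 8. The non-transduced arrays stood far apart from each other. Between them 2921 genes differed by 2-fold or more, against 589 between the MyoD + Dox arrays and 739 between the uninduced arrays, and the first principal component, with 68.4% of the variance, placed non-transduced array 2 at 90.9 and array 1 at -30.2. Results are therefore also given without single arrays. No source says whether the 2 arrays of each group were separate cultures, and each p-value therefore reflects array-to-array spread that may be technical.

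Promoters of the proliferation genes were searched for short elements, among them those that the background describes. A few are shown so that the mitotic and the S phase pattern can be set side by side. RefSeq windows on GRCm38.p6, from 250 bases before to 50 bases after each start, were matched for 30 of the 37 genes, 15 of each class. Both strands were searched for CHR (TTTGAA or TTCGAA), the CCAAT box (CCAAT), an E2F element (TTTCCCGC, TTTGGCGC, TTTCGCGC or TTTGCCGC) and the E box CAGCTG, a form that MyoD can bind. CHR letters were present in 12 of 15 mitosis windows (80%) and 2 of 15 S phase windows (13.3%), beside 19.2% of all 32851 windows. The CCAAT box was present in 86.7% of mitosis windows, 60% of S phase windows and 37.4% of all windows. E2F letters were in 6 of 15 S phase windows (40%), in 1 of 15 mitosis windows, that of Cdk1, and in 2.27% of all. The E box was found in 20% of S phase, 13.3% of mitosis and 16.3% of all windows. Such a match describes letters in a window and is not a site of binding.

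The 150 bases before the start are printed for the 3 S phase genes that varied most over the 6 arrays among those with E2F letters in these bases, followed by the 3 mitosis genes that varied most among those with CHR letters there. Cdc6 was above background on no array, so its place in that order rests on background signal. Cdk1 is added because it holds both, a choice made after the matches were seen. Capitals mark every CHR, CCAAT, E2F and E box match on either strand, and in Mcm6 an E2F match on one strand runs into another on the opposite strand. The stretches are chr10:128705052-128705201 (minus strand) for Cdk2, chr11:98908001-98908150 (plus) for Cdc6, chr1:128359706-128359855 (minus) for Mcm6, chr2:164769779-164769928 (plus) for Ube2c, chr7:135716380-135716529 (minus) for Mki67, chr4:118437344-118437493 (minus) for Cdc20 and chr10:69352913-69353062 (minus) for Cdk1.
Cdk2: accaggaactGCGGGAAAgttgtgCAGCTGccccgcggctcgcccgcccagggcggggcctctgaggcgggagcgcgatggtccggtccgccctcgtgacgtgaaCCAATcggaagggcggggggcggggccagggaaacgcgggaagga
Cdc6: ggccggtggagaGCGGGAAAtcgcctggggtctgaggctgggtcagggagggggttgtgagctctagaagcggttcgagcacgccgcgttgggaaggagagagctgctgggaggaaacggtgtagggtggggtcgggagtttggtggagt
Mcm6: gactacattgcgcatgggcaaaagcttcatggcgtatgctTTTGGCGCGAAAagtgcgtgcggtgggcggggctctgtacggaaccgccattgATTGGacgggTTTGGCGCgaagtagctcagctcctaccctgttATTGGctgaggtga
Ube2c: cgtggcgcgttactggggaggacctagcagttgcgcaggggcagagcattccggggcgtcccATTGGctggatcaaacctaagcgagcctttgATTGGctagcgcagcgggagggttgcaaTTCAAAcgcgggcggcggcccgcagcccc
Mki67: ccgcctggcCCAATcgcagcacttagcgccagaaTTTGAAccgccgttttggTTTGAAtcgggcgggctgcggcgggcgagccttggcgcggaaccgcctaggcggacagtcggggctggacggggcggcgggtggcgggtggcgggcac
Cdc20: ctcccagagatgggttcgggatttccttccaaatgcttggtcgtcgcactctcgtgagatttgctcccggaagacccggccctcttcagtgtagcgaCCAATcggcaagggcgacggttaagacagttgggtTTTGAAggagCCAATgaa
Cdk1: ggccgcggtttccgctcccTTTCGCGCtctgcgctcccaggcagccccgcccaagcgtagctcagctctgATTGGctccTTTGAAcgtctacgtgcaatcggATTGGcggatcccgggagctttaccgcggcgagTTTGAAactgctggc

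Transcripts of most proliferation genes were still detected after 3 days of differentiation, in every group. All 19 measured mitosis genes and 14 of 18 S phase genes were above background on all 6 arrays, as were 8662 of 19505 genes overall. E2f1, the activator of S phase genes, Cdc6 and Tk1, the salvage enzyme thymidine kinase, were above background on no array, and the replication factor Gins2 was above it on 2. In bulk RNA, fewer cells of a type and less RNA per cell cannot be told apart, so these signals do not give the share of cells that were cycling. The mean log2 signal of the mitosis genes was 10.55 ± 0.27 in MyoD + Dox cells, 10.22 ± 0.32 in uninduced cells and 10.08 ± 0.30 in non-transduced cells (SD, n = 2 arrays each). For the S phase genes it was 9.15 ± 0.37, 8.98 ± 0.13 and 8.85 ± 0.05 in the same groups. The mean of both classes was thus highest in MyoD + Dox cells. For the S phase genes it was so by less than 1 SD of that group against either other group. MyoD + Dox array 1 was below uninduced array 1 for both classes, at 10.36 against 10.45 for mitosis and 8.88 against 9.07 for S phase.

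**Figure D1:**
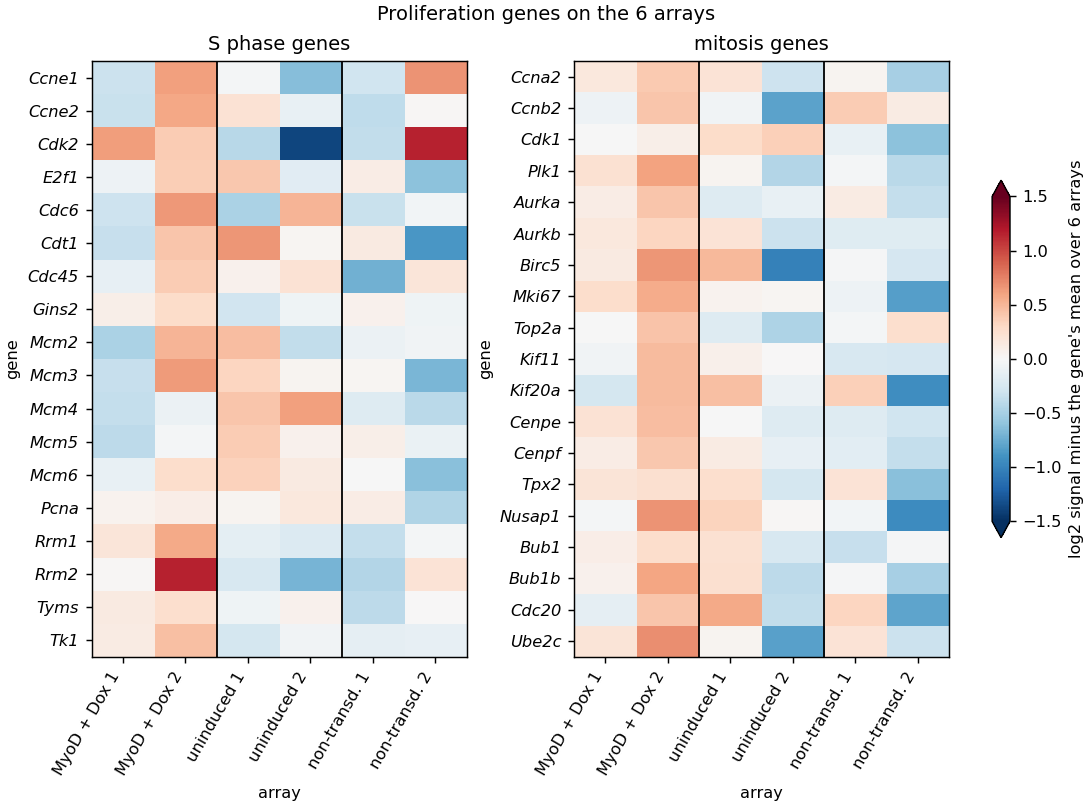
Each row is a proliferation gene and each column an array, and the colour gives the log2 signal minus the mean of that gene over the 6 arrays (log2 units). MyoD + Dox array 2 is the warmest column, highest in 26 of 37 genes, and non-transduced array 2 is the coldest among the mitosis genes, lowest in 12 of 19.

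Against uninduced cells, mitosis genes leaned to higher signals in MyoD + Dox cells and S phase genes were mixed. Of 19 mitosis genes 17 had a positive log2 difference, with a median of 0.33, while 10 of 18 S phase genes did, with a median of 0.05. Without E2f1, Cdc6 and Tk1, which no array put above background, 7 of 15 S phase genes were positive, with a median of -0.01. Over all genes tested 48.9% were positive and the median was -0.01. No proliferation gene passed limma after Benjamini-Hochberg adjustment over 19505 genes, and 0.0% of all genes did (lowest adjusted p among the 37 genes 0.670). At the unadjusted limma threshold of 0.05, 0 of the 37 were higher and 1, Mcm4, was lower, beside 4.22% of all genes higher and 3.19% lower. Both MyoD + Dox arrays lay above both uninduced arrays for 6 of 18 S phase genes and 6 of 19 mitosis genes, beside 23.8% of all genes. Both lay below for 2 S phase genes, Mcm4 and Mcm5, and for 1 mitosis gene, Cdk1, beside 24.8%. The shares above were near those of all genes, and the shares below were under them. The count higher was 4 without uninduced array 1 or without either non-transduced array and 1 without MyoD + Dox array 1, and Mcm4 lost its call without MyoD + Dox array 1 or uninduced array 2. The contrast between the classes rested on single arrays: without MyoD + Dox array 1 the S phase and mitosis medians were 0.45 and 0.49, and without MyoD + Dox array 2 they were -0.23 and 0.21. Without uninduced array 1 they were 0.18 and 0.51, and without uninduced array 2 they were 0.05 and 0.09.

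Among the regulators of S phase, Cdk2, the kinase that fires origins with cyclin E, had the largest difference of the 37 genes. Its log2 signal was 13.07 and 12.83 in MyoD + Dox cells, 12.04 and 11.08 in uninduced cells, and 12.08 and 13.61 in non-transduced cells. Both MyoD + Dox arrays lay above both uninduced arrays, and the non-transduced arrays lay on either side of them, with array 2 the highest of the 6. The difference against uninduced cells was 1.40 on the log2 scale (2.63-fold, SE 0.57, 95% interval -0.01 to 2.80, limma adjusted p = 0.670), and 0.91 without uninduced array 2. Its partners differed less, by 0.48 for Ccne1 and 0.07 for Ccne2, cyclins E, and the groups overlapped for both. E2f1 had all arrays below background and is given no difference.

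Among the enzymes that supply deoxynucleotides, 3 were above background, Rrm1, Rrm2 and Tyms. Each had both MyoD + Dox arrays above both uninduced arrays, as did 23.8% of all genes, and their median difference was 0.56. Rrm2, the regulated subunit of ribonucleotide reductase, had log2 signals of 13.63 and 14.76 in MyoD + Dox cells, 13.37 and 12.91 in uninduced cells, and 13.16 and 13.81 in non-transduced cells. The groups did not overlap between MyoD + Dox and uninduced cells, but MyoD + Dox array 1 lay close to uninduced array 1 and below non-transduced array 2, and MyoD + Dox array 2 stood alone above the rest. The difference was 1.06 (2.08-fold, SE 0.45, limma adjusted p = 0.677). It was 0.49 without MyoD + Dox array 2 and 1.63 without MyoD + Dox array 1. Rrm1, the large subunit, was at 12.90 and 13.28 in MyoD + Dox cells, 12.56 and 12.50 in uninduced cells, and 12.35 and 12.68 in non-transduced cells, so both MyoD + Dox arrays exceeded the other 4. It differed by 0.56 from uninduced cells (SE 0.23) and by 0.58 from non-transduced cells (SE 0.23), with adjusted p = 0.677 and 1.0. Tyms, thymidylate synthase, differed by 0.20, and Tk1 had no array above background.

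The licensing and fork genes were more often negative than positive against uninduced cells, but not on both MyoD + Dox arrays. Of these 10 genes 8 had a negative difference, with a median of -0.03, where 48.9% of all genes were positive. The 2 positive genes were Cdc6, above background on no array, and Gins2, above it on 2. Cdc45, Pcna, Mcm2 and Mcm3 differed by only -0.01 to -0.03. As the deviation from each gene's mean, the 10 genes averaged -0.23 and 0.31 on the MyoD + Dox arrays and 0.19 and 0.13 on the uninduced arrays. All 10 were higher on MyoD + Dox array 2 than on array 1. In uninduced against non-transduced cells 9 of 10 were positive, with a median of 0.34, beside 49.9% of all genes. Mcm4, a subunit of the replicative helicase, had log2 signals of 9.43 and 9.70 in MyoD + Dox cells, 10.20 and 10.41 in uninduced cells, and 9.60 and 9.38 in non-transduced cells. The uninduced arrays stood alone above the other 4, which overlapped. The difference was -0.74 in MyoD + Dox against uninduced cells (1.67-fold lower, SE 0.22, 95% interval -1.27 to -0.20, limma adjusted p = 0.670), and 0.81 in uninduced against non-transduced cells (SE 0.22, adjusted p = 0.637). Against non-transduced cells MyoD + Dox cells differed by 0.08 (SE 0.22). The other MCM subunits did not share this size: Mcm5 differed by -0.44, Mcm6 by -0.16, and Mcm2 and Mcm3 by -0.03 each. Cdt1, which loads the helicase, differed by -0.31 with overlapping arrays.

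Pcna, the sliding clamp of the replication fork, was nearly level. Its log2 signal was 14.88 and 14.92 in MyoD + Dox cells, 14.86 and 14.98 in uninduced cells, and 14.94 and 14.37 in non-transduced cells, with non-transduced array 2 below the other 5 arrays, which overlapped. The difference against uninduced cells was -0.03, with a 95% interval of -0.64 to 0.59. Cdc45, which activates the helicase, had the smallest difference of the S phase genes. It was at 7.41 and 7.91 in MyoD + Dox cells, 7.59 and 7.75 in uninduced cells, and 6.81 and 7.70 in non-transduced cells, and the MyoD + Dox arrays lay on either side of the uninduced ones. The difference of -0.01 had a 95% interval of -0.89 to 0.87, which leaves room for changes near 2-fold.

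**Figure D2:**
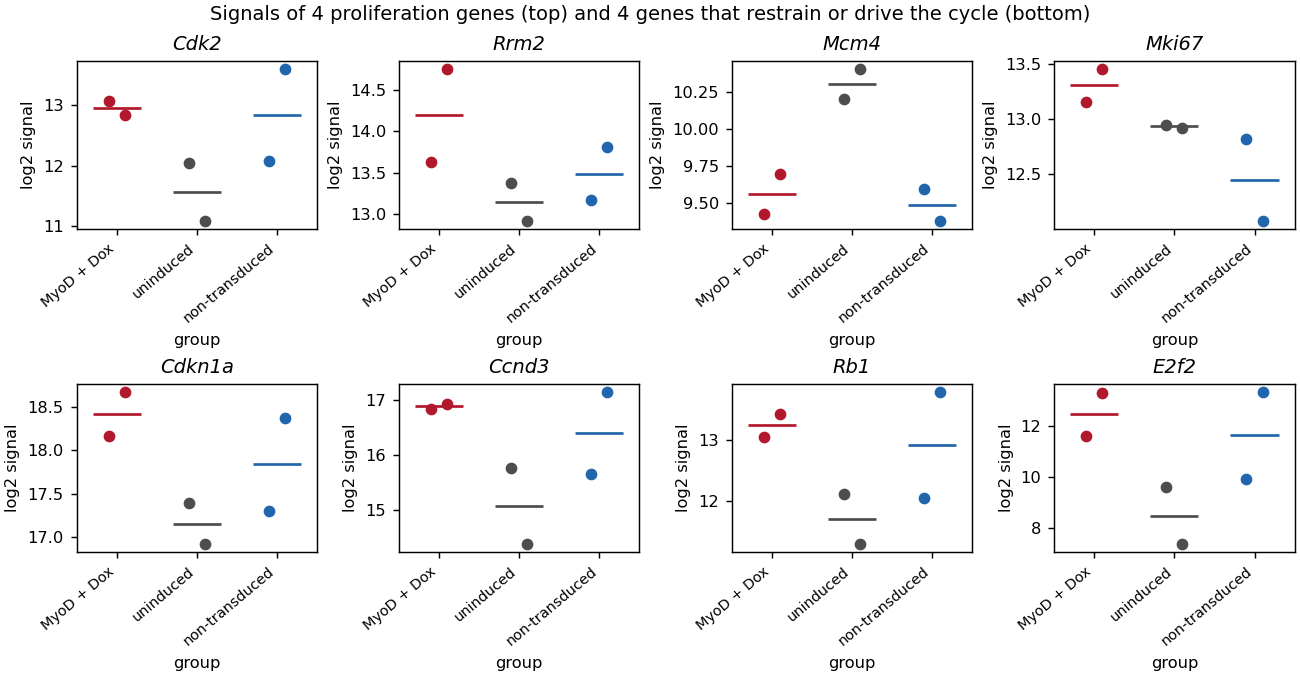
Points are single arrays, bars the mean of 2 arrays, and each panel has its own log2 signal axis. In the top row Cdk2, Rrm2 and Mki67 were higher on both MyoD + Dox arrays than on both uninduced arrays and Mcm4 was lower. In the bottom row Cdkn1a, Ccnd3, Rb1 and E2f2 were each higher on both MyoD + Dox arrays. Of all genes 23.8% were higher in this way and 24.8% lower. The bottom genes had the largest differences of their lists, which did not move one way. Negative differences were found for 4 of 7 inhibitors and 3 of 4 D cyclin and partner kinase genes. They were also found for 7 of 14 pocket protein and DREAM genes and 19 of 33 further replication genes.

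Among the mitotic regulators, 6 of 7 had a positive difference against uninduced cells, with a median of 0.42. Birc5, the survivin subunit of the chromosomal passenger complex, was at 9.24 and 9.77 in MyoD + Dox cells, 9.59 and 8.09 in uninduced cells, and 9.09 and 8.85 in non-transduced cells. Uninduced array 2 alone was low, and the groups overlapped through uninduced array 1. The difference was 0.66 (1.59-fold, SE 0.51, limma adjusted p = 0.734), but it turned to -0.09 without uninduced array 2 and was 1.42 without uninduced array 1. Plk1, the Polo kinase that drives mitotic entry, separated more evenly, with 11.64 and 12.01 in MyoD + Dox cells, 11.44 and 10.96 in uninduced cells, and 11.37 and 11.0 in non-transduced cells. Both MyoD + Dox arrays were above the other 4. It differed by 0.62 from uninduced cells and 0.64 from non-transduced cells (SE 0.28 each, adjusted p = 0.680 and 1.0), and by 0.38 from uninduced cells without uninduced array 2. Among the other regulators the Aurora kinase genes Aurka and Aurkb differed by 0.42 and 0.31 from uninduced cells, and Ccna2, the cyclin A used in both S phase and mitosis, by 0.33. Of these only Aurka had both MyoD + Dox arrays above both uninduced arrays.

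The B cyclin that was measured and its kinase had differences of opposite sign against uninduced cells, but both 95% intervals included 0. They were -0.22 to 1.41 for Ccnb2 and -0.86 to 0.31 for Cdk1. Ccnb2, cyclin B2, had log2 signals of 10.86 and 11.36 in MyoD + Dox cells, 10.89 and 10.14 in uninduced cells, and 11.32 and 11.06 in non-transduced cells. Uninduced array 2 was the lowest, while MyoD + Dox and non-transduced cells overlapped. The difference was 0.60 against uninduced cells (SE 0.33, adjusted p = 0.688), or 0.22 without uninduced array 2, and -0.08 against non-transduced cells, the only negative one of 19 in that comparison. Cdk1, its kinase partner, was at 9.24 and 9.33 in MyoD + Dox cells, 9.52 and 9.59 in uninduced cells, and 9.13 and 8.63 in non-transduced cells. The 3 groups did not overlap, with uninduced cells highest and non-transduced cells lowest. MyoD + Dox cells differed by -0.27 from uninduced cells and by 0.41 from non-transduced cells (SE 0.24 each, adjusted p = 0.757 and 1.0), and uninduced cells by 0.68 from non-transduced cells (1.60-fold, 95% interval 0.09 to 1.26, adjusted p = 0.637).

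Genes of the spindle and the mitotic chromosome were positive in 7 of 8 cases against uninduced cells, with a median of 0.24, and in 8 of 8 against non-transduced cells, with a median of 0.49. Mki67, which coats mitotic chromosomes and is the usual marker of cycling cells, had log2 signals of 13.15 and 13.46 in MyoD + Dox cells, 12.95 and 12.92 in uninduced cells, and 12.82 and 12.08 in non-transduced cells. The 3 groups did not overlap, with MyoD + Dox cells highest and non-transduced array 2 well below the rest. The difference was 0.37 against uninduced cells (SE 0.30, adjusted p = 0.746) and 0.86 against non-transduced cells (1.81-fold, SE 0.30, 95% interval 0.12 to 1.59, adjusted p = 1.0). Cenpe, a kinesin that moves chromosomes from the kinetochore, was at 10.31 and 10.55 in MyoD + Dox cells, 10.09 and 9.90 in uninduced cells, and 9.89 and 9.79 in non-transduced cells. Its groups fell in the same order without overlap, by 0.44 against uninduced and 0.59 against non-transduced cells (SE 0.20 each, adjusted p = 0.680 and 1.0). Top2a, the topoisomerase that untangles sister chromatids, differed by 0.55 and Kif20a, a kinesin of cytokinesis, by -0.08 from uninduced cells. The spindle motor gene Kif11 and the genes Tpx2, Nusap1 and Cenpf, of spindle assembly and the kinetochore, differed by 0.17, 0.22, 0.14 and 0.26, with overlapping arrays for each. Against non-transduced cells Nusap1 differed by 0.81 (SE 0.39). Both MyoD + Dox arrays were above both non-transduced arrays, as for 13.9% of all genes, but barely so. MyoD + Dox array 1 was at 10.916 and non-transduced array 1 at 10.905, with non-transduced array 2 lower.

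At the exit from mitosis, Ube2c and Cdc20 work on the same complex, as the ubiquitin-conjugating enzyme and the activator of the anaphase-promoting complex. Ube2c had the largest difference of the mitosis genes, with log2 signals of 11.48 and 11.97 in MyoD + Dox cells, 11.32 and 10.47 in uninduced cells, and 11.48 and 10.96 in non-transduced cells. Uninduced array 2 was again lowest, and MyoD + Dox array 1 stood level with non-transduced array 1. The difference against uninduced cells was 0.83 (1.78-fold, SE 0.37, 95% interval -0.10 to 1.75, adjusted p = 0.680). It was 0.40 without uninduced array 2 and 1.25 without uninduced array 1. Cdc20 was at 8.36 and 8.91 in MyoD + Dox cells, 9.06 and 8.12 in uninduced cells, and 8.81 and 7.70 in non-transduced cells, and every group spanned the others in part. Its difference of 0.04 was the smallest of the mitosis genes in either direction, with a 95% interval of -1.17 to 1.26. The spindle checkpoint kinases Bub1 and Bub1b differed by 0.19 and 0.40.

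**Figure D3:**
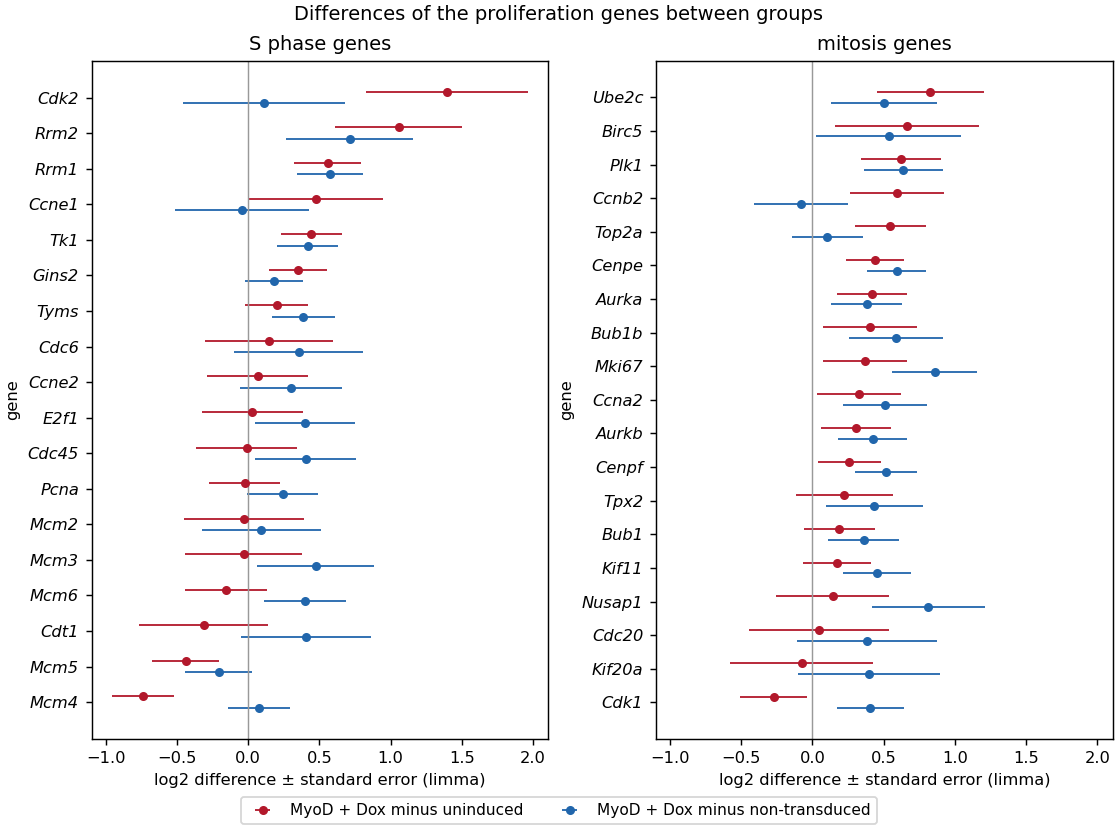
Points give the limma log2 difference of each proliferation gene and lines its standard error, with S phase genes on the left and mitosis genes on the right, in order of the difference against uninduced cells. Of the 19 mitosis genes 17 lie right of 0 against uninduced cells and 18 against non-transduced cells, whereas the S phase genes run from -0.74 for Mcm4 to 1.40 for Cdk2 against uninduced cells.

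Against non-transduced cells, which had doxycycline too, both classes leaned to higher signals in MyoD + Dox cells. Positive differences were found for 18 of 19 mitosis genes (median 0.46) and 16 of 18 S phase genes (median 0.37), beside 50.2% of all genes (median 0.00). The S phase count and median were 13 of 15 and 0.30 without the 3 genes that no array put above background, and the median was 0.18 with signals raised to background, a setting that left the mitosis median at 0.46. Both MyoD + Dox arrays lay above both non-transduced arrays for 12 of 19 mitosis genes and 4 of 18 S phase genes, beside 13.9% of all genes, and below them for 0 of 37, beside 14.3%. At the unadjusted limma threshold Mki67 and Cenpe were higher and no proliferation gene was lower, beside 1.6% and 1.34% of all genes, and after adjustment 0 of 37 and 0.0% of all genes passed (lowest adjusted p 1.0). Without non-transduced array 1 the count higher was 9, without MyoD + Dox array 1 it was 4, without either uninduced array 1, and without MyoD + Dox array 2 it was 0. Without non-transduced array 2, the array that stood apart, both calls were lost and Cdc45 and Rrm1 were the 2 genes higher, with Mki67 at 0.49 and Cenpe at 0.54. The class medians stayed positive without any single array, at 0.33 to 0.66 for mitosis and 0.11 to 0.59 for S phase. This comparison and the one before share the MyoD + Dox arrays.

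Uninduced cells were set against non-transduced cells to see where the proliferation genes stood without induction of Myod1. These groups differ in transduction, selection and doxycycline together. The mitosis genes had a median difference of 0.18 with 14 of 19 positive, and the S phase genes one of 0.22 with 13 of 18 positive, beside 49.9% of all genes (median 0.00). Mcm4 and Cdk1 were higher at the unadjusted limma threshold and none was lower, beside 3.11% and 3.12% of all genes, and after adjustment 0 of 37 passed, beside 0.0%. Both uninduced arrays lay above both non-transduced arrays for 6 mitosis and 3 S phase genes, and below for 2 and 2, beside 19.2% of all genes in each direction. The count higher was 7 without non-transduced array 1, 0 without uninduced array 2, and 1, Mcm4, without uninduced array 1 or either MyoD + Dox array. Without non-transduced array 2 the 2 genes higher were Cdc45 and Mcm4, and Cdk1 lost its call. Without non-transduced array 1, Cdk2 was lower in uninduced cells with adjusted p = 0.0304, a fit in which 1 non-transduced array stands for its group. The mitosis median turned to -0.09 without non-transduced array 2 and to -0.06 without uninduced array 1.

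Single arrays carried much of these class differences. As the deviation from each gene's mean over the 6 arrays, the mitosis genes averaged 0.07 and 0.45 on the MyoD + Dox arrays, 0.16 and -0.29 on the uninduced arrays, and 0.01 and -0.41 on the non-transduced arrays. The S phase genes averaged -0.11 and 0.42 on the MyoD + Dox arrays, 0.08 and -0.10 on the uninduced arrays, and -0.18 and -0.10 on the non-transduced arrays. Uninduced array 1 was therefore above MyoD + Dox array 1 for both classes, and only MyoD + Dox array 2 exceeded every other array. MyoD + Dox array 2 was the highest of 6 for 16 of 19 mitosis genes and 10 of 18 S phase genes, beside 14.5% of all genes. It was above MyoD + Dox array 1 for 36 of 37 genes, with a median of 0.38, beside 50.7% of all genes. Array 2 of the other groups ran the other way for mitosis, above array 1 for 2 of 19 genes in uninduced cells and for 3 of 19 in non-transduced cells, with a median of -0.48 in both. The S phase genes did not follow in non-transduced cells, where 10 of 18 were higher on array 2.

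Muscle genes were measured beside these on the same arrays. The 16 muscle markers deviated by 1.20 and 1.46 on the MyoD + Dox arrays, by -0.76 and -2.90 on the uninduced arrays, and by -0.64 and 1.65 on the non-transduced arrays. Non-transduced array 2 thus had the highest muscle level and the lowest mitosis level, while MyoD + Dox arrays had high muscle levels with mitosis levels above the gene mean, and uninduced array 2 was low in both. All 16 muscle markers had positive differences in MyoD + Dox against uninduced cells, beside 48.9% of all genes, with a median of 3.15. At the unadjusted limma threshold 14 were higher, beside 4.22% of all genes. After Benjamini-Hochberg adjustment 0 of the 16 muscle markers passed (lowest limma adjusted p 0.670). The median over the 37 proliferation genes was 0.22. Among 13 ribosomal protein genes, which served as a level reference, the median difference was -0.04. Genes of myoblasts and reserve cells were mixed: Myf5, a marker of committed myoblasts, was at 8.08 and 7.89 in MyoD + Dox cells, 10.28 and 9.39 in uninduced cells, and 9.48 and 9.14 in non-transduced cells, and the list as a whole had a median of 0.01 with 5 of 10 positive, beside 48.9% of all genes. Summed over the list of 10, the linear intensity was 31338 to 32923 in MyoD + Dox cells, 60359 to 75175 in uninduced cells and 13245 to 62730 in non-transduced cells. Cd34, a surface marker of muscle progenitors, made up 36.5% and 21.7% of this sum on the MyoD + Dox arrays. Its share was 64.1% and 68.7% on the uninduced arrays and 72.1% and 5.10% on the non-transduced arrays. Without Cd34 the sums were 20919 and 24552 in MyoD + Dox cells, 21691 and 23496 in uninduced cells, and 17508 and 12570 in non-transduced cells. MyoD + Dox and uninduced cells thus overlapped. The part of cell composition in the proliferation signals was not tested.

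**Figure D4:**
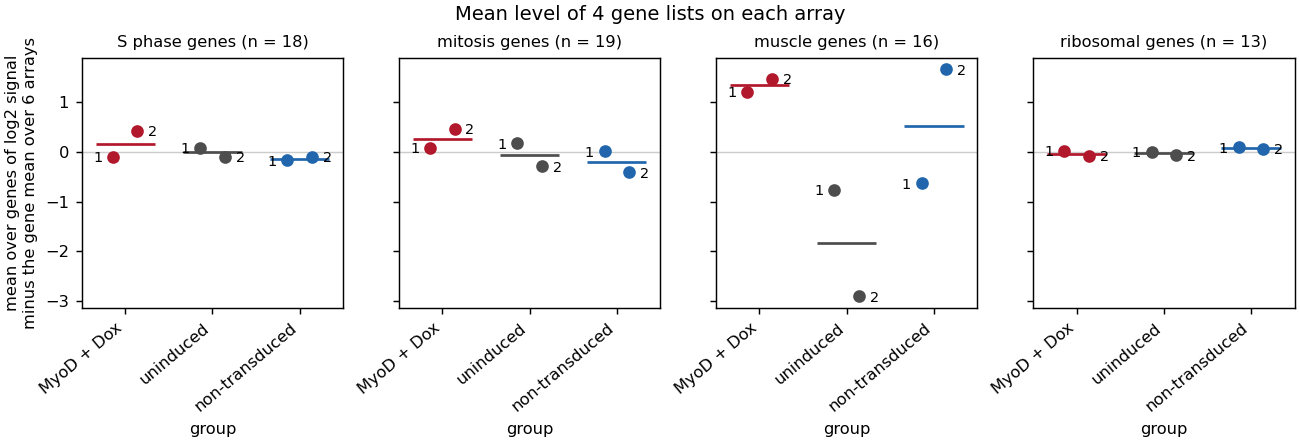
Points are arrays, numbered by replicate, and bars the mean of 2 arrays; the axis is the mean over the genes of a list of the log2 signal minus the gene's mean over 6 arrays. Mitosis genes range from -0.41 on non-transduced array 2 to 0.45 on MyoD + Dox array 2, whereas muscle genes range from -2.90 on uninduced array 2 to 1.65 on non-transduced array 2.

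Other genes of the same pathways were read from wider lists. Of 41 further mitosis genes, 36 were positive in MyoD + Dox against uninduced cells (median 0.32) and 38 against non-transduced cells (median 0.44), beside 48.9% and 50.2% of all genes. Incenp and Kif14 in the first comparison, and Incenp, Ect2, Sgo1 and Pbk in the second, passed the unadjusted threshold and were higher, and were named after their values were seen. Set beside the 4.22% and 1.6% of all genes given above, the 2 of 41 in the first comparison is near the share of all genes. Kif14, a kinesin of cytokinesis, was at 6.60 and 5.93 in MyoD + Dox cells, 5.73 and 5.07 in uninduced cells, and 5.68 and 5.68 in non-transduced cells, so it was near background throughout. Cks2, which binds Cdk1, differed by 0.80 from uninduced cells and Bub3, a checkpoint protein, by 0.01. Of 33 further replication genes 14 were positive against uninduced cells (median -0.07). Gmnn, the inhibitor of Cdt1, was lower at the unadjusted threshold, with a difference of -0.78 (SE 0.31, adjusted p = 0.670) but the MyoD + Dox arrays were below background and only uninduced array 2 of all 6 was above it, so this size is only a bound. Dbf4 and E2f2 were higher at that threshold, Dbf4 named after its value was seen.

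E2f2, another activator E2F, varied widely between arrays. Its log2 signal was 11.62 and 13.32 in MyoD + Dox cells, 9.61 and 7.38 in uninduced cells, and 9.94 and 13.36 in non-transduced cells. The MyoD + Dox arrays were both above the uninduced arrays, and non-transduced array 2 matched MyoD + Dox array 2. The difference against uninduced cells was 3.98 (SE 1.31, adjusted p = 0.670). Rb1, the retinoblastoma protein that restrains E2F, also had non-transduced array 2 highest and uninduced array 2 lowest, with 13.04 and 13.42 in MyoD + Dox cells, 12.11 and 11.29 in uninduced cells, and 12.04 and 13.78 in non-transduced cells, a difference of 1.53 (SE 0.60, adjusted p = 0.670). E2f4, a repressor E2F of the DREAM complex, differed by 1.18, while Lin54, its CHR-binding subunit, differed by -0.02. Over the 14 genes of the pocket protein and DREAM list 7 were positive and 7 negative.

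The brakes and starters of the cycle were at their own levels beside the proliferation genes. Cdkn1a, which encodes p21, had log2 signals of 18.16 and 18.67 in MyoD + Dox cells, 17.39 and 16.92 in uninduced cells, and 17.31 and 18.37 in non-transduced cells, with both MyoD + Dox arrays above both uninduced arrays by a mean of 1.26 (SE 0.41, adjusted p = 0.670). Ccnd3, the D cyclin that stays in myotubes, differed by 1.82 (SE 0.63, adjusted p = 0.670) and Cdkn1b, which encodes p27, by -1.11 (SE 0.43, adjusted p = 0.670). Neither list moved one way: of 4 D cyclin and partner kinase genes Ccnd3 was the only positive one (median -0.25; Cdk6 -0.62, Ccnd2 -0.21), and 3 of 7 inhibitor genes were positive, 3 of the 7 being above background on no array.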

How the data were processed

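Expression was measured on 6 Clariom S mouse arrays. The labels name Trizol for RNA extraction and the study's methods name the RNeasy kit. The authors deposited a linear signal intensity per probe set, normalized between arrays; Affymetrix Expression Console is named in the submitters' processing notes, and which software step produced these values is not given in the sources that were used. Array median intensities were 45.4 to 48.4. Of 28846 probe sets, 19572 had 1 gene symbol in the platform annotation and 9274 had none; for the 55 genes with several probe sets the one with the highest mean was kept, which left 19505 genes.

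Samples were grouped by the labels. Log2 intensities of all 6 arrays were fitted in limma 3.58.1 (R 4.3.3; lmFit and eBayes, two-sided, 3 residual degrees of freedom) with Benjamini-Hochberg adjustment over all genes at 0.05. Intervals are 95% intervals from that fit. Gene classes are described by counts and medians only. No filter was applied; the background came from 23 background probe sets. The number of arrays limits the precision.

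Values on every array are given for the 4 members of each class with the largest and the 1 with the smallest difference from uninduced cells, members past an unadjusted limma threshold, and Mki67, Pcna and Cdk1; of other lists, the 2 largest and the 1 smallest were eligible. The members and lists were chosen with earlier results of these data known. Alternatives were quantile and median normalization, eBayes with trend and robust, a filter on the lowest 40% of genes, 4 arrays alone, the replicate number as a block, probe set means, Student's t-test, a 2-fold threshold, signals raised to background, and leaving out each array. The study's methods give that t-test for comparisons of 2 groups in general and name the Transcriptome Analysis Console for the arrays. A crossed pairing, and leaving out S phase genes that no array put above background, were added after seeing the data.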

Additional observations from a re-analysis of the deposited data

How the results depend on the processing

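After Benjamini-Hochberg adjustment no proliferation gene passed in MyoD + Dox against uninduced or non-transduced cells under any setting; in uninduced against non-transduced cells the count was 0 to 1 when single arrays were left out, Cdk2 being the 1 without non-transduced array 1, where the lone array is assumed to vary like the other groups. At the unadjusted threshold the counts were small and moved.

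In MyoD + Dox against uninduced cells the count higher (0 as reported) was 1 with quantile normalization or eBayes with trend and robust. It was 2 with signals raised to background and 4 with the 4 arrays alone. The count lower (1) was 2 with Student's t-test and 0 with the 2-fold threshold. In MyoD + Dox against non-transduced cells the count higher (2) was 1 with trend and robust or the 4 arrays alone, 4 with signals raised to background, 0 with the 2-fold threshold and 0 to 9 without single arrays. In uninduced against non-transduced cells the count higher (2) was 1 with trend and robust or the 4 arrays alone, 0 with the 2-fold threshold and 0 to 7 without single arrays, and the count lower (0) was 0 to 1 without single arrays. The cause of these changes was not tested.

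Whether the replicate numbers pair the arrays cannot be read from their correlations, which did not go one way. Deviations of same-numbered arrays correlated at -0.05 between MyoD + Dox and uninduced arrays. The correlation was 0.41 between MyoD + Dox and non-transduced arrays, and -0.34 between uninduced and non-transduced arrays. With the replicate block, 1 gene was higher in MyoD + Dox against non-transduced cells in place of 2, and no other count of proliferation genes moved by over 1.5 times. With the uninduced numbers crossed, a pairing added after seeing the data, 4 genes were higher in MyoD + Dox against uninduced cells, 4 against non-transduced cells, and 1 was lower in uninduced against non-transduced cells.

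Shifts of the class medians were set against the SD between arrays pooled over groups (0.23 for S phase, 0.30 for mitosis). The S phase median against uninduced cells moved by more when either MyoD + Dox array was left out, to -0.23 and 0.45. Against non-transduced cells it moved by more only without MyoD + Dox array 2, to 0.11, and was 0.59 without MyoD + Dox array 1. Other settings moved class medians by less, but without genes below background the S phase median against uninduced cells was -0.01, and the mitosis median of uninduced against non-transduced cells changed sign without single arrays. Sign changes without single arrays were checked only for the proliferation genes whose values on every array are given, and not for the others. Against uninduced cells 4 of the genes checked changed sign, none of them called with all 6. Birc5 ranged from -0.086 to 1.42, Cdc20 from -0.42 to 0.51, Cdc45 from -0.26 to 0.24 and Pcna from -0.085 to 0.035. Genes below background carry only a bound.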
